A study of Mus musculus with 4 samples.

Results

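Of 23136 genes listed for mouse blood, 17823 had FPKM values (sequenced fragments scaled for transcript length and for the size of the library). Among them, 9 genes of the red cell membrane skeleton, Sptb, Ank1, Slc4a1, Epb41, Epb42, Add1, Add2, Dmtn and Tmod1, were taken by gene symbol. All 9 were listed once, and all 9 passed the filter on low values, a mean FPKM of at least 0.5, that 5339 genes passed. The blood came from aging C57BL/6 mice, for which no genetic change is named, about a year old in the study's methods and called adult in the sample labels. Nar (naringenin, a flavonoid) was given for 30 days, by injection into the tail vein, to the mice of 2 libraries, numbered 1 and 3. The 2 control libraries, also numbered 1 and 3, came from mice treated with PBS, a salt buffer, over the same 30 days. The labels do not say how many animals stand behind a library, and p-values here measure only the spread between these libraries. Oligo(dT)-purified messenger RNA of all cells in blood was sequenced together, and in such bulk samples fewer cells of a type and less RNA per cell cannot be told apart.

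The membrane of the red cell is held by a mesh of spectrin under the lipid bilayer. Spectrin chains meet at junctions of short actin filaments, where protein 4.1, adducin, dematin and tropomodulin bind, and between the junctions ankyrin ties the mesh to band 3, the anion exchanger. Inherited defects of these proteins give fragile red cells of abnormal shape, as in hereditary spherocytosis and elliptocytosis. Mature red cells of mammals have no nucleus, and messenger RNA of these genes in blood is known mainly from reticulocytes, the youngest circulating red cells, although platelets and white cells also use some of the genes.

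The genes lie on 8 mouse chromosomes (RefSeq, GRCm38.p6): Sptb at chr12:76580488-76710547, Ank1 at chr8:22974836-23150501, Slc4a1 at chr11:102348820-102365281, Epb41 at chr4:131923413-132075346, Epb42 at chr2:121017891-121036877, Add1 at chr5:34573664-34632308, Add2 at chr6:86028681-86124409, Dmtn at chr14:70602184-70636048 and Tmod1 at chr4:46038940-46116032. RefSeq promoter windows, which run from 250 bases before to 50 bases after an annotated start, were matched for 6 genes, with 3 alternative starts for Epb41 and 8 windows in all. Ank1, Slc4a1 and Dmtn were not matched. GATA factors are known regulators of red cell genes, and their words AGATAA and AGATAG, as well as TGATAA and TGATAG, were searched on both strands, so that CTATCT, for example, is AGATAG read from the other strand. At least 1 of these words stood in 5 of the 8 windows, belonging to 4 of the 6 genes (Sptb, Epb41, Epb42 and Add2), against 29.8% of 32851 promoter windows of mouse genes. The word CACCC stood in 3 windows, against 57.5% of all windows, and CCNCNCCCN, which can overlap CACCC, in 6, against 49.4%. The windows of 3 genes with a GATA word are printed below with the word in capitals, beside that of Add1, as 1 of the 3 windows without such a word. The others were those of Tmod1 and of the Epb41 start that lies farthest from the other 2. A word is a match of letters and not a binding site.
Sptb, minus strand, chr12:76710498-76710797: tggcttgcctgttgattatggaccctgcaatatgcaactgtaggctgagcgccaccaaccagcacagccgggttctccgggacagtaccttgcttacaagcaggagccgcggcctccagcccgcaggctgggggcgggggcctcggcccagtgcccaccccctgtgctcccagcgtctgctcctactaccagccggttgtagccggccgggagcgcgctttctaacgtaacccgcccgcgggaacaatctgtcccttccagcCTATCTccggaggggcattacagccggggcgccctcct
Epb42, minus strand, chr2:121036828-121037127: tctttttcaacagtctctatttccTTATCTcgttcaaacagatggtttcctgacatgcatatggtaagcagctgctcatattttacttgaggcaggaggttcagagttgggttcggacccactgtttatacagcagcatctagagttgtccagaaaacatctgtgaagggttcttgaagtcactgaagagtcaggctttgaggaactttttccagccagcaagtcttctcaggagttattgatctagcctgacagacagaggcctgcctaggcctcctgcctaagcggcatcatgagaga
Epb41, middle start, minus strand, chr4:132072048-132072347: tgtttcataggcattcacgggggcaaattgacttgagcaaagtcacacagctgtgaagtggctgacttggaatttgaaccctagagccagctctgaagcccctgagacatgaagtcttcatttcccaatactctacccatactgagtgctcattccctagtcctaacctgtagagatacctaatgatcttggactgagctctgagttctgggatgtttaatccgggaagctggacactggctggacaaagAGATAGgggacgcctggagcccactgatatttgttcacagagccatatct
Add1, plus strand, chr5:34573414-34573713: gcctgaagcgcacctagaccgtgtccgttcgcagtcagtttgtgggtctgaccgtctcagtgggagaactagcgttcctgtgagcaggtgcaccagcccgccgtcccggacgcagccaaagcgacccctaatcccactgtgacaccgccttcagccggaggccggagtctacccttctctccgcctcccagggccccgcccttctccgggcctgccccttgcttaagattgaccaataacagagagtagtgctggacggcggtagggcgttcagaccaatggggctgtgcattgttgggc
In the Epb41 window the word begins at the annotated start itself, in the Sptb window 12 bases past it, and in the Epb42 window 226 bases before it.

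Haemoglobin genes made up between 92.6% and 96.4% of the summed FPKM of a library and every library held markers of red cells, neutrophils, monocytes, platelets, B cells and T cells. Sequencing depth is unknown, since FPKM values carry no counts. The median log2 fold change of the 5339 tested genes, Nar minus control on log2(FPKM + 0.1), was -1.07, so the typical gene took a smaller share of the Nar libraries. With median-of-ratios scaling, a division of each library by its typical gene, that median was -0.06. Both scales are therefore given for the membrane genes.

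The order of the levels was alike in the 4 libraries at its top and bottom. Epb41, which encodes protein 4.1, the protein that strengthens the spectrin-actin junction, ranked 1 in every library, and Slc4a1, which encodes band 3, ranked 2. The ranges of Epb41, of Slc4a1 and of the genes below them did not overlap. Add2, the beta subunit of adducin, ranked 9 in every library. Between them, Add1, Epb42, Sptb, Tmod1, Ank1 and Dmtn lay between 1.57 and 16.65 FPKM, and the ranges of each gene and its neighbour in that order overlapped. FPKM divides by a transcript length that the sources used here do not give, and a gene with several transcripts, such as Epb41, can be placed too high or too low by it.

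**Figure D1:**
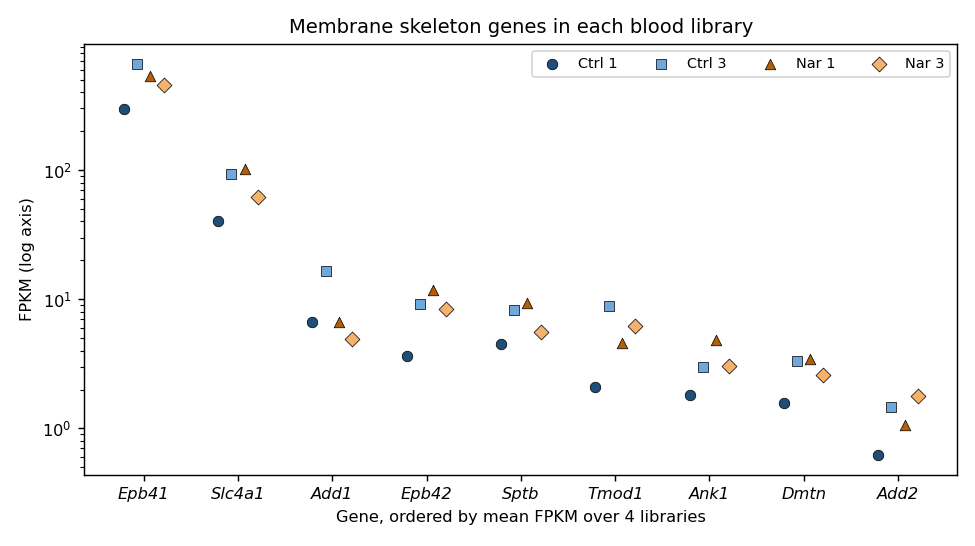
FPKM (log axis) of the 9 membrane skeleton genes in each of the 4 blood libraries, ordered by mean FPKM, with 1 symbol per library. Ctrl 1 is the lowest library for 8 of the 9 genes, and Epb41 and Slc4a1 stand above all others in every library.

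Among the genes of spectrin and its anchor, the log2 fold changes were above 0 and none passed the test. Sptb, the beta chain of red cell spectrin, was at 4.48 FPKM in control 1, 8.18 in control 3, 9.34 in Nar 1 and 5.58 in Nar 3. The groups overlapped, with both Nar libraries above control 1 and 1 of them above control 3. In limma its log2 fold change was 0.25, with a standard error of 0.52 and an adjusted p of 0.68. Ank1, the ankyrin that binds spectrin to band 3, was at 1.82 and 2.98 FPKM in the controls and 4.81 and 3.04 in the Nar libraries. Alone among the 9 genes it had groups that did not overlap, and Nar 3 lay just above control 3. Its log2 fold change was 0.69 ± 0.45 (SE, n = 2 per group), and limma gave an adjusted p of 0.208. With each library scaled to a sum of 1000000 (TPM), the groups of Ank1 overlapped.

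Slc4a1 exchanges chloride for bicarbonate and is the main attachment point of the mesh. It had 40.35 and 93.19 FPKM in the controls and 101.03 and 61.91 with Nar. Control 1 was lowest and control 3 lay between the Nar libraries, so that the log2 fold change of 0.37 (95% interval -0.95 to 1.68, adjusted p = 0.588 in limma) was smaller than the difference between the controls. Epb42, or protein 4.2, binds band 3 and ankyrin and belongs by sequence to the transglutaminases, without their activity. It was at 3.66 FPKM in control 1, 9.14 in control 3, 11.68 in Nar 1 and 8.35 in Nar 3. Of the 9 genes it had the highest log2 fold change, 0.76, but its interval ran from -0.50 to 2.02 and its adjusted p was 0.254.

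At the actin junctions the log2 fold changes had both signs, and none passed the test. Epb41 was at 298.34 and 666.98 FPKM in the controls and 537.69 and 458.18 in the Nar libraries, with both Nar values between the controls. The group means were 482.66 ± 261 and 497.94 ± 56.2 FPKM (SD, n = 2 each). Its log2 fold change was 0.15, with an interval from -0.93 to 1.24. Dmtn, or dematin, which bundles actin filaments, had 1.57 and 3.35 FPKM in the controls and 3.44 and 2.57 with Nar. The log2 fold change of Dmtn was 0.36 and its adjusted p 0.512.

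Adducin caps the fast-growing end of the actin filament as a pair of an alpha and a beta subunit, and the values of its subunits ran apart. Add1, the alpha subunit that many cell types make, was at 6.66 FPKM in control 1, 16.65 in control 3, 6.68 in Nar 1 and 4.89 in Nar 3. Only control 3 was high, while control 1 and Nar 1 were nearly equal. Add1 alone had a negative log2 fold change, -0.87 with an interval from -2.13 to 0.39 and an adjusted p of 0.199. Add2, the beta subunit known from red cells and brain, had 0.62 and 1.46 FPKM in the controls and 1.06 and 1.79 with Nar, a log2 fold change of 0.48 (adjusted p = 0.367). Its values are low enough that rounding to 2 decimals and the pseudocount weigh on them. Tmod1, or tropomodulin, which caps the slow-growing end, was at 2.09 FPKM in control 1, 8.80 in control 3, 4.57 in Nar 1 and 6.19 in Nar 3. Both Nar values lay between the controls, which differed 4.21-fold, the widest gap of the 9 genes. The log2 fold change of Tmod1 was 0.30 with a standard error of 0.65.

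In limma 0 of the 9 genes had an adjusted p under 0.05, while 39.6% of all tested genes were called lower and 0.187% higher. At an unadjusted p under 0.05 it was also 0 of the 9, against 3036 of the 5339 tested genes. Both Nar libraries lay below both controls for 0 of the 9 genes, against 78.3% of all tested genes, and above both for 1 of the 9, against 1.27%. The median log2 fold change of the 9 genes was 0.36, beside -1.07 for all tested genes, and it was -0.18 without control 1 and 0.97 without control 3. The 95% intervals of 7 of the 9, all but Add1 and Tmod1, lay wholly above -1.07, as did those of 6.74% of all tested genes. Other red cell markers, neither haemoglobin nor membrane genes, had a median of 0.08, with 7 of 14 positive and 0 called, and that median was -0.13 without control 1, -0.18 without Nar 1 and 0.27 and 0.29 without control 3 and Nar 3. The upper ends of the intervals lay between 1.24 and 2.02 for the 8 genes other than Add1, so rises of more than 2-fold could not be told from none with 2 libraries against 2.

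On the median-of-ratios scale, where each value is relative to the typical gene, all 9 log2 fold changes were positive, from 0.22 for Add1 to 1.85 for Epb42, with a median of 1.42. Both Nar libraries lay above both controls for 8 of the 9 genes, all but Add1, against 18.6% of all tested genes. Sptb was then at 2.98 and 5.61 in the controls and 12.6 and 8.80 with Nar, in scaled FPKM, and Ank1 at 1.21 and 2.05 against 6.49 and 4.79. For 7 of the 9 genes the unadjusted p was under 0.05 in the higher direction, against 6.18% of all tested genes. After adjustment 0 of the 9 were called, the lowest adjusted p being 0.124 for Ank1, and 0.468% of all tested genes were called in either direction. For the 14 other red cell markers the median on this scale was 1.16, with 12 positive, 9 at an unadjusted p under 0.05 and 0 called. Leaving haemoglobin genes out before scaling, the median of the 9 genes was 0.90, and both Nar libraries lay above both controls for 7 of the 9, against 7.04% of all tested genes, and below for 0, against 54.1%. With TPM it was 0 above, against 1.03%, and 1 below, against 79.5%. The 9 genes were named with results of these libraries known, so these counts describe the genes and are no independent test.

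**Figure D2:**
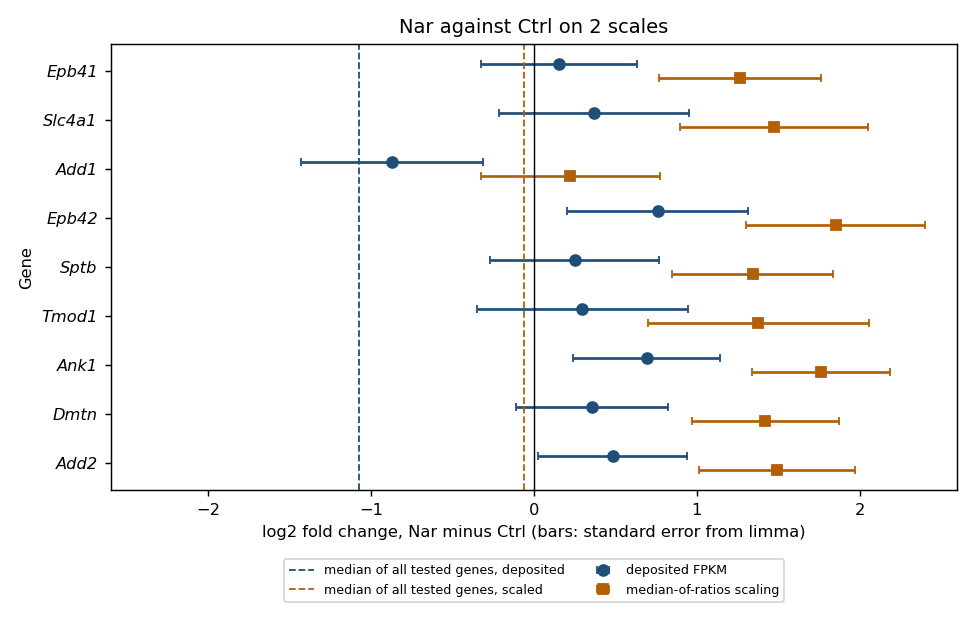
Log2 fold change, Nar minus control, of each membrane skeleton gene on deposited FPKM (circles) and after median-of-ratios scaling (squares), with bars of 1 standard error from limma, 2 libraries per group. The dashed lines give the median of all 5339 tested genes, -1.07 and -0.06; 8 genes lie right of 0 on both scales, and Add1 lies at -0.87 on one and 0.22 on the other.

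Control 3 was above control 1 for all 9 genes, by 1.64-fold for Ank1 to 4.21-fold for Tmod1, while 56.6% of all tested genes were higher in control 3 and the median gene differed 1.10-fold. For 8 of the 9 genes, all but Ank1, the log2 difference between the controls was larger than that between the group means. Without control 1 the log2 fold changes of Sptb, Slc4a1, Epb41, Add2, Dmtn and Tmod1 turned negative, between -0.72 for Tmod1 and -0.075 for Add2, while those of Ank1 and Epb42 were 0.35 and 0.11. That of Add1 was -1.53 without control 1 and -0.22 without control 3. Without control 3 those of the other 8 genes lay between 0.68 and 1.41.

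Among markers of other blood cells, those of platelets had the same direction between the controls. All 6 platelet markers (Pf4, Ppbp, Itga2b, Gp9, Gp1bb and Treml1) were higher in control 3, by a median of 3.10-fold, and their summed FPKM was 667 in control 1 and 2115 in control 3, against 556 and 434 in the Nar libraries. Of the 14 other red cell markers, 13 were higher in control 3, by a median of 1.49-fold. Of neutrophil, monocyte, B cell and T cell markers, 2 of 12, 2 of 6, 0 of 6 and 1 of 5 were higher in control 3. The 12 neutrophil markers summed to 1746 and 1442 FPKM in the controls and 106 and 165 with Nar. All 12 were called lower, as were 4 of 6 tested monocyte markers, against 39.6% of all tested genes. Of the 6 B cell, 5 T cell and 6 platelet markers tested, 0 were called. With median-of-ratios scaling 3 of the 12 neutrophil and 1 of the 6 monocyte markers were called, against 0.468% of all tested genes. Of the B cell, T cell and platelet markers it was again 0. None of the platelet or neutrophil markers was at 0 in any library. Add1, like the platelet sum, was highest in control 3 and lowest in Nar 3. That order was not particular to platelet markers, since Actb, Tmod3, Sptbn1 and F13a1 also had it. Of the other red cell markers tested, Gata1, Nfe2 and Bnip3l had it and the rest did not. The share of all tested genes with this order was not computed. The part of platelet and white cell RNA in the values of the membrane genes was not tested.

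**Figure D3:**
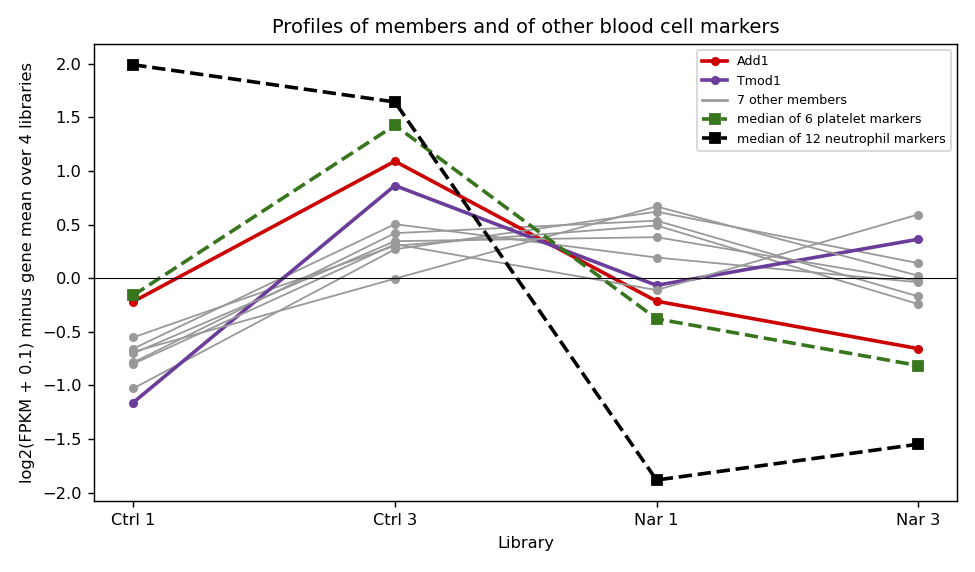
Each gene's log2(FPKM + 0.1) in the 4 libraries minus its own mean over them; solid lines are membrane skeleton genes, and dashed lines the median of 6 platelet and of 12 neutrophil markers. Lines only join the values of 1 gene or list. Add1 and the median of the platelet markers are highest in Ctrl 3 and lowest in Nar 3, and the other 8 membrane genes are lowest in Ctrl 1.

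Ratios of 2 genes within a library do not depend on how libraries are scaled. Of 7 such ratios, 6 did not overlap between the groups, 5 higher and 1 lower with Nar. The values of the 1 that was lower are not reported here. Over all pairs of 5298 tested genes 45.2% did not overlap. Among the 36 pairs of membrane genes alone it was 17 pairs, or 47.2%, close to that background. Those 17 included all 8 pairs with Add1 and 9 of the 28 pairs without it, a split made after the values were seen. The exact two-sided permutation test of 2 libraries against 2 cannot give a p below 0.333, which each of the 6 ratios had, and 0.389 after adjustment over the 7.

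Add2 relative to Add1 was 0.0931 and 0.0877 in the controls and 0.159 and 0.366 in the Nar libraries, a mean 2.67-fold higher with Nar. The control values were nearly equal and both Nar values were higher. The log2 difference, 1.42, was 2.02 without Nar 1 and 0.81 without Nar 3. Relative to Slc4a1, Ank1 was 1.27-fold and Epb42 1.32-fold higher with Nar, each in both libraries. The difference for Ank1, 0.35 on the log2 scale, was no larger than the SD between the controls, 0.35, and ran from 0.10 without control 3 to 0.60 without control 1.

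Set against the paralogs that other cells use, Tmod1 and Sptb were higher in both Nar libraries than in both controls. Tmod1 relative to Tmod3, the widely used tropomodulin, was 0.238 and 0.441 in the controls and 0.690 and 1.35 with Nar. The mean difference was 2.98-fold, with SDs of 0.63 and 0.69 on the log2 scale, and the log2 difference of 1.58 ran from 1.09 without Nar 3 to 2.06 without Nar 1. Sptb relative to Sptbn1, a beta spectrin of non-red cells, was 1.98 and 1.71 in the controls and 3.56 and 3.88 with Nar, 2.02-fold higher and with little spread within either group. Add1 relative to Add3, the gamma adducin, did not follow, at 1.49 and 4.46 in the controls and 2.29 and 2.88 with Nar (exact permutation p = 1). The ratio of Epb41 to Epb41l2 was not computed, because Epb41l2 had a mean of 0.428 FPKM.

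**Figure D4:**
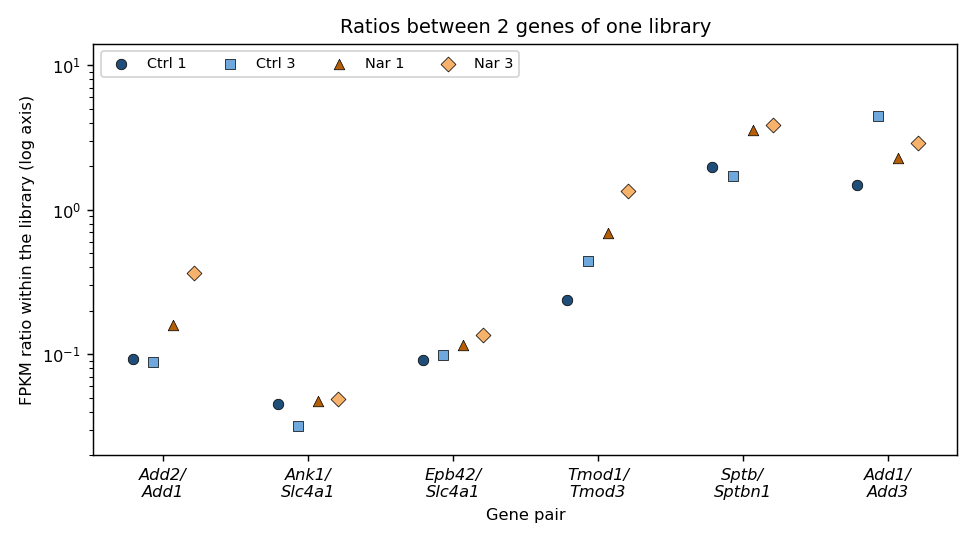
FPKM of 1 gene divided by that of another in the same library (log axis) for 6 pairs, with 1 symbol per library. Both Nar libraries lie above both controls for 5 pairs, and the groups overlap for Add1 to Add3.

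Of 22 other genes of the red cell skeleton and its membrane complexes, 16 were tested, 2 were called lower, against 39.6% of all tested genes, and 0 higher. Both Nar libraries lay above both controls for 3 of the 16, against 1.27% of all tested genes, and below both for 9, against 78.3%. Beside -1.07 for all tested genes, the median log2 fold change of the 16 was -0.98. That median was -0.37 without control 3, where all tested genes had -0.95, and -1.38 without control 1. The called genes were Slc2a1, the glucose transporter, with a log2 fold change of -2.18 (adjusted p = 0.00654), and Cd44, a surface receptor abundant on white cells, with -1.67 (adjusted p = 0.03). Among the most abundant, Actb, the beta actin that all cells make, had 143.92 and 173.50 FPKM in the controls and 82.36 and 43.78 with Nar and did not pass the test (adjusted p = 0.058). Car2, a carbonic anhydrase, had 47.75 and 54.12 against 212.75 and 78.08 FPKM, and Mpp1, a membrane scaffold, 30.40 and 60.64 against 103.66 and 49.31. The groups of Car2 did not overlap, those of Mpp1 did, and neither gene passed, with adjusted p-values of 0.0861 and 0.297. In both, as in Sptb, Ank1, Slc4a1, Epb42 and Dmtn, Nar 1 was the highest library.

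Of 34 paralogs, 32 had values and 8 were tested. No log2 fold change among the 8 was positive, and of all 5339 tested genes only 338 were. The median of the 8 was -1.13, near the -1.07 of all tested genes, and it was -0.72 without Nar 3 and -1.39 without Nar 1. Both Nar libraries lay below both controls for 6 of the 8, near the 78.3% of all tested genes. Of the 8, 2 were called lower, against 39.6% of all tested genes. They were Svil, or supervillin, an actin binder related to dematin, with -2.09 (adjusted p = 0.0111), and Tgm2, a transglutaminase related to Epb42, with -1.57 (adjusted p = 0.0224). The most abundant were F13a1, the A chain of clotting factor XIII, with -1.49, Tmod3 with -1.25, Add3 with -0.85 and Sptbn1 with -0.73, none of which passed. With median-of-ratios scaling 0 genes of either list were called, and without control 1 or without control 3 limma called 0 of all 5339 genes, with 2682 and 2133 at an unadjusted p under 0.05.

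Outside these lists, the 5 genes whose profile over the 4 libraries was nearest to the median profile of the 9 membrane genes, among 1023 with a mean of at least 5 FPKM, were Nt5c3, Ranbp10, Ptp4a3, Hscb and Sec61g. Their root mean square distance, in log2 units over 4 libraries, ran from 0.0321 for Nt5c3 to 0.0771 for Sec61g, while that of the membrane genes ran from 0 for Dmtn, which was itself the median in every library, to 0.621 for Add1. Nt5c3, a nucleotidase of red cells, had 21.08 and 43.74 FPKM in the controls and 44.54 and 35.49 with Nar. With 4 libraries such likeness is a description only.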

How the data were processed

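RNA-seq of blood from 2 Nar and 2 control libraries was used, grouped by the sample titles. Values are FPKM as deposited by the authors, with 2 decimals. Per the paper clean reads were aligned with bowtie-2, while the submitters' processing notes name TopHat2, Cufflinks and GRCm38; versions and annotation are not given in the sources used here. All 4 value columns matched a library, and 0 were left over. The study's DEGseq needs read numbers, so log2(FPKM + 0.1) of 5339 genes with a mean of at least 0.5 FPKM was fitted with limma 3.58.1 (lmFit, eBayes with trend, R 4.3.3), without the replicate number, with Benjamini-Hochberg adjustment over all of them. Ratios were compared with exact permutation tests (SciPy 1.17.1).

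The members and all lists were chosen with earlier results of these data known. Named from the wider lists were the partners in ratios, the 4 genes with the highest mean FPKM per list, called genes, and the 5 nearest profiles. Genes that this rule names but that are not reported here stay in the counts. Also tried were pseudocounts of 1 and 0.01, no filter, a mean of at least 5 FPKM, TPM, removal of haemoglobin genes, median-of-ratios scaling, no trend, the replicate block and leaving out each library. Promoter sequences came from RefSeq (GRCm38.p6). Plots were drawn with matplotlib 3.10.9.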

Additional observations from a re-analysis of the deposited data

How the results depend on the processing

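No membrane gene was called under any alternative run, but without the filter, without control 1 and without control 3 no gene at all was. Ank1, Dmtn and Add2 were not tested in the run with a mean of at least 5 FPKM. The median log2 fold change of the 9 genes, 0.36, was 1.42 with median-of-ratios scaling, where Add1 turned to 0.22, and 0.90 with haemoglobin removed. With a library left out it ran from -0.18 without control 1 to 0.97 without control 3. Its spread between replicates was wide, 0.63. With libraries left out, log2 fold changes turned sign for Sptb (-0.18 to 0.68), Slc4a1 (-0.24 to 0.97), Epb41 (-0.43 to 0.73), Add2 (-0.075 to 1.04), Dmtn (-0.17 to 0.88) and Tmod1 (-0.72 to 1.31), while that of Add1 ran from -1.53 to -0.22, and the log2 difference of the ratio of Add1 to Add3 ran from -0.80 to 0.79. Both Nar libraries were above both controls for 7 of the 9 genes with haemoglobin removed, against 7.04% of all tested genes. With median-of-ratios scaling it was 8, against 18.6%. With TPM it was 0, against 1.03%, and 1 was below, against 79.5%.

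Of all tested genes 2123 were called, against 281 with haemoglobin removed, 25 with median-of-ratios scaling, 117 of 1083 with a mean of at least 5 FPKM, 0 of 16382 without the filter, of which 4978 had an unadjusted p under 0.05, and 0 to 259 with a library left out, the 0 arising without control 1 and without control 3. Partner genes called, 2 at first, numbered 3 with haemoglobin removed and without the trend, 1 with that higher minimum, 0 without the filter or with median-of-ratios scaling, and 0 to 1 with a library left out. Paralogs called, also 2, numbered 3 with TPM, 0 in the filter alternatives, without haemoglobin genes and under median-of-ratios scaling, and 0 to 1 with a library left out. With 1 library in a group, that library is assumed to vary like the other group. The cause of these changes was not tested.

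The replicate numbers 1 and 3 come only from the sample titles, and deviations of same-numbered libraries correlated at -0.153 across genes. With the replicate block 1815 genes, 1 partner gene and 2 paralogs were called, and with the numbers crossed, chosen after the data were seen, 3233, 10 and 5. Unknown depth limits low genes such as Add2.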
